A study of Mus musculus with 4 samples.

Results

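Perivenous hepatocytes are the liver cells that surround the central vein of each lobule. Their nuclei were described here in non-tumor liver of male mice, profiled by single-nucleus RNA sequencing, which counts transcripts as unique molecular identifiers (UMIs) in nuclei held in droplets. Of 26591 deposited barcodes, 12284 were taken as hepatocyte nuclei and 1231 of these as perivenous. A hepatocyte nucleus had at least 3000 UMIs, at most 5% of them from mitochondrially encoded genes, at least 10 UMIs of Cps1 and Apob together, and at most 2 UMIs summed over 7 genes of other liver cells (Ptprb, Stab2, Reln, Cd5l, Clec4f, Skap1 and Pax5). Each nucleus received a central score, the UMIs of Glul, Slc1a2, Slc22a3, Lgr5, Kif26b and Rcan2 per 10000 UMIs, and the top 10% of each library were called perivenous.

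There were 2 libraries of mice labelled Brca1-WT and 2 of mice labelled Brca1-KO, and all 4 livers came from mice of 12 months that had received 25 mg/kg of diethylnitrosamine (DEN), which causes liver tumors, when 14 days old. The labels name neither the deleted exons of Brca1 nor a Cre driver, and livers without DEN were not analysed here. Where 4 values are given in a row, they belong to Brca1-WT replicate 1, Brca1-WT replicate 2, and the libraries labelled Brca1-KO replicate 1 and replicate 2, in that order. The perivenous nuclei numbered 262, 351, 246 and 372 and held 2668708, 2882417, 2690759 and 4199506 UMIs. Their median depth was 8870, 7166, 9452.5 and 9086.5 UMIs, against 9330, 6726, 9999 and 7862 in the other hepatocyte nuclei of the same libraries. The labels call the replicates biological and say no more, so p-values measure the spread between these samples. Pairs of libraries shared 9 to 20 of their cell barcodes, and 0 of the shared barcodes were perivenous.

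Hepatocytes differ along the path of blood from the portal vein to the central vein. Wnt ligands released by the endothelium of the central vein act on the nearest hepatocytes through frizzled receptors, LRP co-receptors and the LGR receptors for R-spondins, and stabilise beta-catenin, which switches on glutamine synthetase (Glul), Axin2 and several cytochromes P450. Perivenous hepatocytes are known for capturing leftover ammonia as glutamine, for bile acid synthesis and for xenobiotic metabolism, and Cyp2e1 of this zone converts DEN to its DNA-damaging form. Periportal hepatocytes are known for urea synthesis, gluconeogenesis and the breakdown of amino acids.

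The same rank reached different depths of the score in the 4 libraries. The lowest score among perivenous nuclei was 43.3, 11.5, 19.5 and 6.37, and the highest score outside was 43.2, 11.5, 19.4 and 6.36. The nucleus at this border held 25, 13, 36 and 2 UMIs of the 6 genes. Brca1-WT replicate 1 therefore set the highest bar and the library labelled Brca1-KO replicate 2 the lowest, and in that library 18 of 372 perivenous nuclei (4.84%) held fewer than 5 UMIs of the 6 genes.

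The border and the share of nuclei above a common score did not separate the genotypes. The border averaged 27.4 ± 22.5 in Brca1-WT and 12.9 ± 9.25 in the libraries labelled Brca1-KO (SD, n = 2 each, 2-sided exact permutation p = 0.667, where 2 against 2 cannot go below 0.33). Above a common score of 21.5, which 10% of nuclei exceed when the libraries are weighted equally, lay 15.1% (95% exact interval 13.8 to 16.6), 8.48% (7.58 to 9.45), 9.67% (8.53 to 10.9) and 6.73% (5.94 to 7.58) of hepatocyte nuclei. Brca1-WT replicate 1 stood above the other 3, and the groups overlapped (11.8% ± 4.71 against 8.20% ± 2.08, SD, n = 2 each, exact permutation p = 0.667). Without Brca1-WT replicate 1 the border differed by 1.38 in the opposite direction, and the share by -0.281 percentage points.

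**Figure D1:**
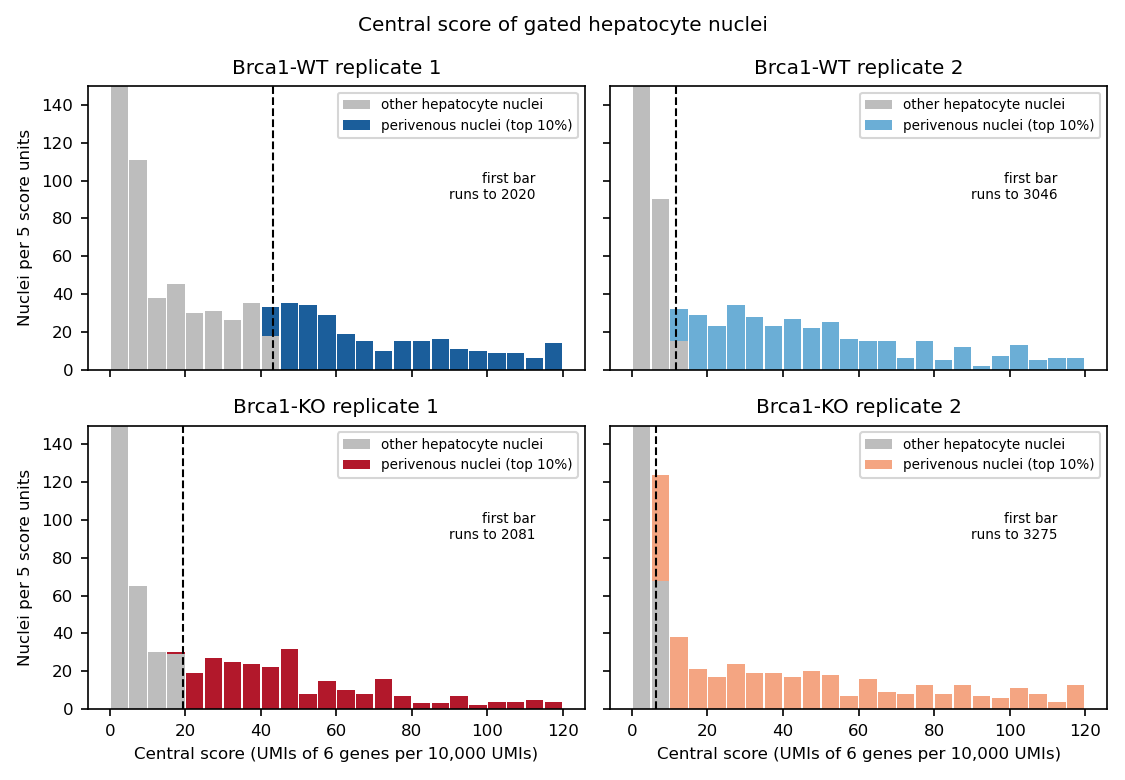
Number of hepatocyte nuclei per 5 units of the central score (UMIs of 6 genes per 10000 UMIs), 1 panel per library, with perivenous nuclei in colour, other hepatocyte nuclei in grey and the border as a dashed line. The first bar, nuclei below a score of 5, is cut off at the top of each axis, the last bar also holds the 7, 4, 3 and 9 nuclei with scores of at least 120, and the border runs from 6.37 in the library labelled Brca1-KO replicate 2 to 43.3 in Brca1-WT replicate 1.

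Among the 6 genes, Slc1a2, which encodes a glutamate transporter, carried 64.8%, 72.7%, 76.7% and 60.9% of the score's UMIs. Glul carried 19.8%, 15.6%, 10.4% and 17.5%, and Lgr5, the R-spondin receptor, carried 5.33%, 6.18%, 5.53% and 14.3%. The score is thus mostly a reading of Slc1a2, and Lgr5 had its highest share in the library labelled Brca1-KO replicate 2. When every nucleus was thinned to 3000 UMIs, 71.8%, 39.0%, 41.1% and 50.3% of perivenous nuclei held at least 3 of the 6 genes, against 2.17%, 0.190%, 0.272% and 0.0598% of the other hepatocyte nuclei.

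Each of the 6 genes was also read in nuclei ranked by the other 5. Levels are given as CPM, the UMIs of a gene per 1000000 UMIs summed over the nuclei of a library, with no further scaling. Glul then stood at 1261, 771, 504 and 757 CPM in the top 10% and at 39.97, 22.1, 13.6 and 11.9 in the rest, which is 31.5, 34.8, 37.1 and 63.4 times higher. Slc1a2 was 12.4, 18.9, 13.8 and 41.4 times higher, and Lgr5 7.10, 8.15, 9.08 and 10.0 times. Kif26b, a kinesin family gene, was 60.05, 98.0, 117 and 103 times higher, and Slc22a3, an organic cation transporter, 25.3, 42.2, 42.3 and 49.2 times. Rcan2, a calcineurin regulator, was 9.94, 20.9, 12.4 and 20.6 times higher. The 6 genes thus marked overlapping nuclei in each of the 4 libraries.

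Genes that stood with the score were read at their promoters, since beta-catenin acts through TCF and LEF factors, whose sites share the core letters CTTTGAT or CTTTGAA. These 2 words were searched on both strands in the 250 bases before each start site in the RefSeq promoter table (assembly GRCm38.p6) (reverse strand ATCAAAG or TTCAAAG). They occurred in 7.479% of all 32851 promoters. Of the 128 genes at least 2-fold higher in perivenous nuclei of every library, 94 had a promoter in the table, and 18 of their 127 promoters (14.17%) held a match. Of the 140 genes at least 2-fold lower, 91 had one, and 12 of 125 promoters (9.6%) held a match. A match is a run of letters and says nothing of binding. Promoters were counted and not genes, so Gm15411 and Blvrb count more than once among the 18. The 18 also include the score genes Slc1a2 and Kif26b, which the rule itself placed among the higher genes. The upstream 250 bases of 3 of the higher genes are printed because they show the match at different distances, 207 bases before the start site in Slc1a2 (chr2:102706188-102706437, plus strand), 10 bases before it in Kif26b (chr1:178528875-178529124, plus strand) and 32 bases before it in Lect2, a secreted chemotactic factor of hepatocytes (chr13:56548539-56548788, minus strand). Letters run 5′ to 3′ on the gene's strand and capitals mark the match.
Slc1a2 promoter: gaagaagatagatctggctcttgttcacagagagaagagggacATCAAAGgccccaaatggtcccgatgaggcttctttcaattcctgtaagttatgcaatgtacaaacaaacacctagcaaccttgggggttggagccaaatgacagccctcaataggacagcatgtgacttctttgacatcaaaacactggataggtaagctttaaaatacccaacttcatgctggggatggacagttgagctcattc
Kif26b promoter: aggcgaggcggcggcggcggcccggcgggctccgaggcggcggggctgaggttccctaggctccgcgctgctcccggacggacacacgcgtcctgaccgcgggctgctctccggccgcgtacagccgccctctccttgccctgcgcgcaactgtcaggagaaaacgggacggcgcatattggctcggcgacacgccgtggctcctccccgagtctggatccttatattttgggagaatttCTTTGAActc
Lect2 promoter: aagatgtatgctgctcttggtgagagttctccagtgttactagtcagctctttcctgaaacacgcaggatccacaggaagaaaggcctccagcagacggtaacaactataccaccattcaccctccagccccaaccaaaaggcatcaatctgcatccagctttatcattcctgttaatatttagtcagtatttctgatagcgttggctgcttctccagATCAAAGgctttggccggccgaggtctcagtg

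The label was checked against markers that the score did not use. Of 39 other perivenous markers with at least 100 UMIs in the perivenous or in the other hepatocyte nuclei, 37 were higher in perivenous nuclei in all 4 libraries and 0 were lower in all 4, with a median log2 ratio of 0.98. Of 34 periportal markers, 0 were higher and 30 were lower in all 4 libraries, with a median of -1.03, while over all 12936 genes read this way 2173 (16.8%) were higher and 2454 (19%) lower in all 4 libraries and the median was -0.02. The nuclei fit their label by these lists, which were chosen with earlier results of these data known. Because the rule ranked the same nuclei, these ratios describe the choice and carry no test.

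At a ratio of at least 2 in every library, 128 genes (0.989% of 12936, the 6 score genes among them) were higher in perivenous nuclei and 140 (1.08%) were lower. Of the other perivenous markers, 14 were at least 2-fold higher in every library, and of the periportal markers 14 were at least 2-fold lower. Levels in the comparison of zones are CPM as above, and the ratio sets perivenous nuclei against the other hepatocyte nuclei of the same library.

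Nkd1, Axin2 and Tbx3 of the Wnt list were at least 2-fold higher in perivenous nuclei of every library. Nkd1, an inhibitor that acts on Dishevelled, stood at 8.62, 8.67, 8.55 and 10.0 CPM in perivenous nuclei and at 0.385, 0.307, 0.343 and 0.357 elsewhere, ratios of 22.4, 28.2, 24.9 and 28.0. Its level barely varied between the 4 libraries. Axin2, a scaffold of the complex that degrades beta-catenin, read 45.7, 28.4, 45.0 and 37.6 against 12.1, 8.02, 7.73 and 8.34. Tbx3, a T-box repressor, read 160, 103, 130 and 212 against 57.2, 38.2, 36.5 and 71.2, and its opposite-strand transcript Tbx3os1 read 308, 141, 90.3 and 165 against 32.0, 14.1, 8.22 and 21.0. No source used here says whether strand was used in counting, so reads of Tbx3 and Tbx3os1 cannot be told apart where they overlap.

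The 2 ubiquitin ligases that remove frizzled receptors had smaller ratios. Rnf43 was 2.004, 1.89, 2.09 and 2.03 times higher in perivenous nuclei, and Znrf3 1.65, 1.78, 1.65 and 1.80 times. Notum, a secreted enzyme that inactivates Wnt ligands, was 2.13, 1.53, 1.83 and 2.13 times higher. The pathway's core moved little: Ctnnb1, which encodes beta-catenin, read 51.0, 50.3, 56.9 and 63.3 CPM in perivenous nuclei against 55.5, 52.2, 59.2 and 62.1, and Apc, another scaffold of the degradation complex, read 186, 152, 181 and 152 against 186, 162, 183 and 162.

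Among the DNA-binding partners of beta-catenin, Tcf7l1 was at the other end of the range. It stood at 4.50, 19.4, 5.57 and 10.5 CPM in perivenous nuclei and at 81.5, 149, 79.3 and 145 in the other nuclei, which is 18.1, 7.68, 14.2 and 13.8 times lower. Tcf7l2 was only 1.28, 1.28, 1.20 and 1.34 times lower. Of 40 genes of the Wnt list read this way, 4 were at least 2-fold higher in every library (Lgr5, which is a score gene, Nkd1, Axin2 and Tbx3), 1 was at least 2-fold lower (Tcf7l1), and 18 were higher and 11 lower in all 4 libraries at any size, where 16.8% and 19% of all genes were.

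Genes of glutamine and glutamate handling lay at both ends. Of 31 read, 5 were at least 2-fold higher in every library, of which Glul and Slc1a2 belong to the score and the others were Slc1a5, Slc1a4 and Oat. Slc1a5, a neutral amino acid transporter that carries glutamine, stood at 41.2, 40.6, 47.2 and 16.9 CPM against 6.28, 4.61, 6.89 and 1.43 elsewhere. Slc1a4, its relative for alanine and serine, stood at 4.87, 4.16, 6.32 and 3.33 against 1.12, 0.960, 1.71 and 0.417. Oat, ornithine aminotransferase, read 136, 166, 168 and 49.3 against 47.5, 44.7, 45.5 and 11.4, so its ratio was 2.86, 3.71, 3.68 and 4.32 although its level in the library labelled Brca1-KO replicate 2 was the lowest of the 4 in both zones.

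The opposite reaction, the release of ammonia from glutamine, was low in perivenous nuclei. Gls2, the liver glutaminase, stood at 15.4, 47.5, 23.4 and 9.52 CPM against 229, 375, 411 and 146, which is 14.9, 7.89, 17.6 and 15.4 times lower. The urea cycle genes Arg1 and Asl were at least 2-fold lower in every library, at 178, 404, 474 and 167 against 1440, 1141, 1311 and 691 for Arg1 and at 197, 443, 459 and 86.9 against 955, 1100, 1037 and 276 for Asl. Ass1, the step before Asl, was 4.36, 1.82, 1.55 and 3.99 times lower and varied more between libraries than between zones, its perivenous level being 106 CPM in replicate 2 and 1917 in replicate 1 of the libraries labelled Brca1-KO.

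The enzymes Gldc, Sds and Hal, which break down other amino acids, were among the 10 genes named for the lowest ratios. Gldc, glycine decarboxylase, read 11.6, 47.5, 23.8 and 14.8 CPM against 289, 441, 417 and 238. Sds, serine dehydratase, read 13.1, 57.2, 40.1 and 5.48 against 209, 472, 599 and 108, and Hal, histidine ammonia-lyase, read 13.1, 58.6, 26.4 and 16.4 against 222, 468, 452 and 193. Ftcd, which takes histidine breakdown into the folate pool, was 3.35, 4.25, 4.91 and 5.39 times lower. For Gldc, Sds, Gls2 and Hal the ratio was nearest to 1 in Brca1-WT replicate 2, where the perivenous level was the highest of the 4.

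Cytochromes P450 and conjugating enzymes gave 6 of 63 genes at least 2-fold higher in every library and 0 lower. At any size, 34 were higher and 6 lower in all 4 libraries, against 16.8% and 19% of all genes. Cyp2a5, which hydroxylates coumarin and nitrosamines, stood at 236, 287, 242 and 511 CPM against 35.6, 46.2, 34.6 and 69.8, with ratios of 6.62, 6.20, 6.98 and 7.32. Cyp1a2, a target of the aryl hydrocarbon receptor, had ratios of 3.72, 3.75, 5.61 and 4.61, and the receptor gene Ahr itself had 2.21, 2.93, 2.12 and 2.74. Cyp2c38 and Cyp2c37 had median ratios of 4.19 and 3.58. Cyp2e1 was 1.60, 1.96, 2.23 and 1.92 times higher and so missed the 2-fold line, with 2667, 2582, 1901 and 2314 CPM in perivenous nuclei and 1662, 1320, 852 and 1202 elsewhere. Counts of near-identical Cyp2a and Cyp2c paralogs are uncertain, because shared reads can be split or lost in counting.

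Cyp2f2, a P450 of the portal side, ran the other way at 8.24, 18.4, 9.66 and 14.3 CPM against 151, 147, 131 and 195. Bile acid genes held 2 of 36 at least 2-fold higher in every library: Abcc4, an export pump of the basolateral membrane, at 28.1, 21.5, 32.0 and 26.9 against 3.62, 2.73, 4.11 and 1.52, and Akr1c6, a hydroxysteroid dehydrogenase, at ratios of 2.10, 2.80, 3.09 and 2.04. Cyp7a1, the rate-limiting enzyme of bile acid synthesis, had ratios of 1.60, 1.99, 1.73 and 2.13. Nr0b2, a repressor of that synthesis, was 2.95, 9.16, 2.83 and 2.64 times lower on 14, 5, 9 and 74 UMIs in perivenous nuclei.

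The genes named for their zone ratios, 14 higher and 10 lower, have the largest median ratios outside the score once gene models known only by a number are left out, some of which had larger ratios, and a few genes not reported here. Of the 14, most are not in the marker lists. Slc13a3, a sodium-coupled dicarboxylate transporter, led them with 46.8, 10.8, 26.8 and 22.1 CPM against 0.964, 0.269, 0.228 and 0.268, ratios of 48.6, 40.02, 117 and 82.6. Its UMIs were found in 29.8%, 6.84%, 17.5% and 16.1% of perivenous nuclei and in 0.935%, 0.222%, 0.272% and 0.269% of the others. Prrx1, a homeobox gene better known from mesenchyme, had ratios of 24.3, 75.3, 23.9 and 41.8 on 20, 25, 22 and 68 UMIs.

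Adgrg2, an adhesion G protein-coupled receptor, read 79.4, 43.7, 33.8 and 47.9 CPM against 3.39, 1.11, 1.45 and 3.01. Gnai1 and Gna14, which encode alpha subunits of G proteins, had median ratios of 17.8 and 8.44. Nt5e, the ectoenzyme that makes adenosine from AMP, varied little around a median ratio of 14.7, from 14.0 to 18.3. A pair of lipid receptors stood in the same range: Vldlr at 10.7, 10.9, 13.2 and 45.1, and Cd36, the fatty acid translocase, at 10.8, 10.8, 4.04 and 10.7.

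For 3 of these genes the level differed widely between libraries in both zones. Cyp2c69, a P450 of the Cyp2c cluster, stood at 872, 17.3, 88.1 and 0.714 CPM in perivenous nuclei and at 70.7, 0.115, 2.70 and 0.298 elsewhere. Lrrtm3, a leucine-rich repeat membrane protein, stood at 32.2, 29.5, 92.9 and 6.19 against 1.89, 0.998, 13.6 and 0.179. Meg3, a long noncoding RNA of an imprinted locus, stood at 62.2, 32.6, 16.4 and 9.05 against 2.66, 0.730, 1.03 and 0.595. Cyp2c69 and Meg3 were highest in Brca1-WT replicate 1, and Lrrtm3 was highest in replicate 1 of those labelled Brca1-KO. Serpina7, thyroxine-binding globulin, rested on 2, 3, 2 and 44 UMIs in perivenous nuclei.

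Among the 10 genes named for the lowest ratios, Cryl1, which encodes an enzyme of the glucuronate pathway, was 14.96, 10.3, 13.0 and 15.7 times lower. Chrm3, a muscarinic acetylcholine receptor, was 13.6, 7.82, 23.0 and 13.7 times lower, with 11.6, 21.9, 6.32 and 21.7 CPM in perivenous nuclei. Bmper, a secreted regulator of bone morphogenetic proteins, held 1 UMI in the perivenous nuclei of each library. Hsd17b6, a hydroxysteroid dehydrogenase, held 2, 1, 0 and 17. The size of these last 2 ratios is set by those few counts, and the 0 was read as 3 counts, the limit it allows.

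**Figure D2:**
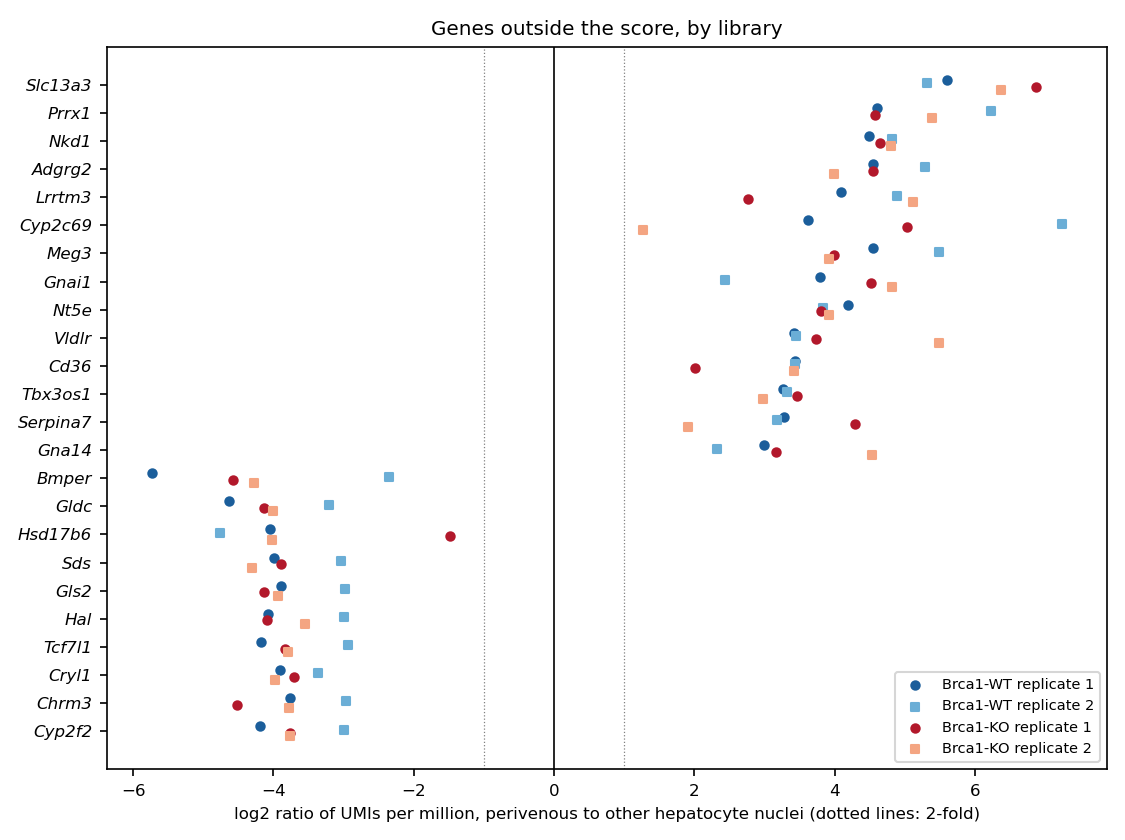
Log2 ratio of CPM, perivenous to other hepatocyte nuclei, for the 14 genes named for the largest median ratios and the 10 named for the lowest, without score genes and gene models known only by a number, 1 point per library. All points lie beyond the dotted 2-fold lines because that chose the genes, and Nkd1 and Nt5e have the tightest points while Cyp2c69 spreads from 2.40-fold to 151-fold. Both ends for Cyp2c69 rest on few UMIs, perivenous against other. These were 3 against 10 in the library labelled Brca1-KO replicate 2 (2.40-fold) and 50 against 3 in Brca1-WT replicate 2 (151-fold).

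Levels also differed between nuclei below the border. Nuclei of each library were ranked by score and cut into bands of 10%, with the lowest 6 bands pooled because most of their nuclei have a score of 0. Cyp2e1 went from 1393, 1104, 656 and 968 CPM in the pooled lower bands to 2414, 2091, 1508 and 1999 in the second highest band and 2667, 2582, 1901 and 2314 in the highest. Gulo, the last enzyme of vitamin C synthesis, went from 58.0, 54.4, 34.5 and 20.2 to 240, 193, 139 and 131, and Oat from 32.7, 33.0, 33.4 and 7.59 to 136, 166, 168 and 49.3.

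Periportal genes ran the opposite way over the same bands. Hal went from 284, 541, 546 and 231 CPM in the pooled lower bands to 47.3, 175, 132 and 63.7 in the second highest and 13.1, 58.6, 26.4 and 16.4 in the highest. Sds went from 273, 557, 747 and 130 to 13.1, 57.2, 40.1 and 5.48. Pck1, the gluconeogenic carboxykinase, had a shallow slope, from 2751, 3175, 2335 and 1886 to 1976, 2391, 1825 and 639, and only the library labelled Brca1-KO replicate 2 dropped by more than 2-fold.

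**Figure D3:**
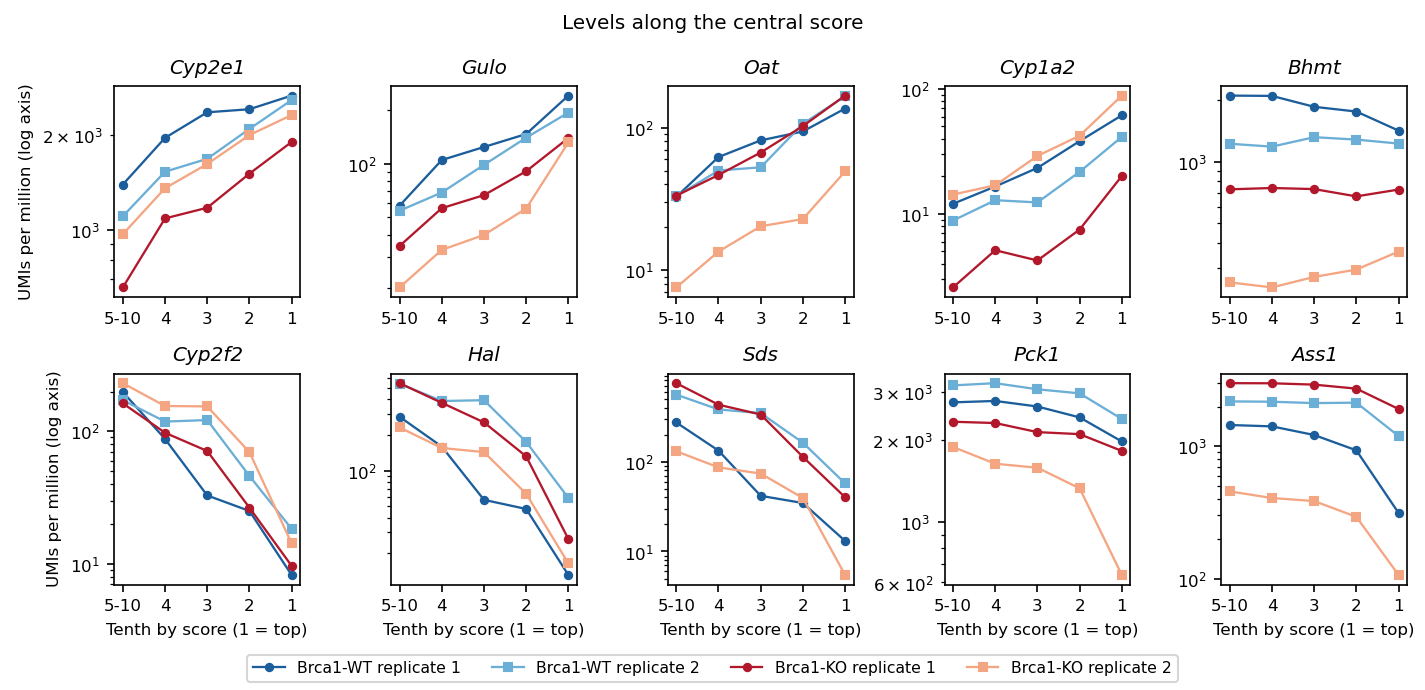
CPM (log axis) of 10 genes in nuclei grouped by central score, from the pooled lower 6 bands on the left to the top 10%, the perivenous nuclei, on the right, 1 line per library. Cyp2e1, Gulo, Oat and Cyp1a2 end higher and Cyp2f2, Hal, Sds, Pck1 and Ass1 end lower in all 4 libraries. Bhmt declines clearly only in Brca1-WT replicate 1 and climbs clearly only in the library labelled Brca1-KO replicate 2.

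Markers of other liver cells were summed over each list in perivenous nuclei. The 21 endothelial markers gave 94.4, 56.2, 51.7 and 43.6 CPM, close to the 100, 58.8, 42.0 and 51.0 of the other hepatocyte nuclei, with 1, 3, 4 and 6 of them at 0. The 14 stellate and fibroblast markers summed to 636, 544, 644 and 794, against 549, 509, 516 and 601 in the other hepatocyte nuclei. Tmem56, also found in the other hepatocyte nuclei, gave most of the perivenous sum. The 17 macrophage markers summed to 471, 307, 559 and 260, against 542, 289, 642 and 223. Of these 17, 15 were under 10 CPM in both sets of nuclei of each library. The 12 cholangiocyte markers summed to 436, 392, 427 and 600, against 476, 446, 533 and 637. Most of the perivenous sum was Onecut2, with 8 of 12 at 0 in each library. The 19 lymphocyte markers summed to 35.6, 20.5, 9.66 and 109, with 9, 8, 11 and 11 at 0, against sums of 24.5, 14.1, 9.06 and 25.6 in the other hepatocyte nuclei. Themis alone held 65, 18, 5 and 423 UMIs in perivenous nuclei, and it gave most of the sum in the library labelled Brca1-KO replicate 2. Doublets called per library were 1, 18, 0 and 5 of the perivenous nuclei. The part of other cells in the results was not tested.

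The shares of nuclei with a UMI were set beside those of endothelial nuclei, all thinned to 1000 UMIs. Slc1a2 was found in 98.5%, 92.6%, 97.2% and 71.5% of perivenous nuclei, 10.5%, 2.09%, 3.99% and 2.21% of other hepatocyte nuclei and 8.14%, 4.68%, 3.60% and 9.15% of endothelial nuclei. Glul was found in 53.1%, 29.3%, 27.2% and 33.6% of perivenous, 2.76%, 2.41%, 1.04% and 1.47% of other hepatocyte and 12.0%, 14.4%, 10.99% and 6.41% of endothelial nuclei. Glul was found in a larger share of endothelial than of other hepatocyte nuclei in all 4 libraries, and Slc1a2 in the second replicate of each genotype. Where the endothelial reads of both genes came from was not tested, so their endothelial share is not used as a measure of background. The perivenous share was the highest of the 3 for both genes in each library. Before thinning, the medians were 1500 to 1991.5 UMIs in endothelial nuclei and the Slc1a2 shares 100%, 98.6%, 100% and 86.6% of perivenous nuclei.

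The genotypes were then compared within perivenous nuclei, on UMIs summed per library and scaled to TMM-normalised CPM. One library stood apart. Across genes, the log levels of the library labelled Brca1-KO replicate 2 correlated with the others at 0.899 to 0.911, and the other 3 with each other at 0.948 to 0.968, which are correlations across genes and not across samples.

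Brca1, the targeted gene, stood at 12.7, 15.2, 23.4 and 7.52 CPM, from 35, 44, 64 and 30 UMIs. The library labelled Brca1-KO replicate 1 was the highest and replicate 2 the lowest of the 4 (log2 fold change 0.08 ± 0.56 SE, edgeR quasi-likelihood adjusted p = 0.995). It was -0.93 without replicate 1, -0.02 without Brca1-WT replicate 1 and -0.07 with the replicate number as a block, so no direction is given. These are 3′ counts and the deleted exons are unknown here. Reads outside those exons would not show a deletion, so the values do not check the labels.

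Of 10492 genes tested, 0 (0.0%) passed at an edgeR adjusted p below 0.05, the smallest adjusted p being 0.995. At an unadjusted p below 0.05 there were 355 (3.38%). DESeq2 called 3 genes: Sntg2 lower and the unnamed models Gm42047 and Gm31508 higher. Without the filter on low counts edgeR called 70 genes, 41 higher and 29 lower. Without replicate 1 of the libraries labelled Brca1-KO, so that replicate 2 stood alone and was assumed to vary like the Brca1-WT libraries, it called 163, 82 higher and 81 lower, while leaving out any other library gave 0. In simulated data of this size, 29.5% of 2-fold, 98% of 4-fold and 100% of 8-fold changes were recovered. Every simulated gene had the same fixed spread, and only genes of higher counts were changed. The spread between these libraries was not used, so the shares do not say which changes could be missed here. Each library labelled Brca1-KO was above each Brca1-WT library for 1893 genes (18.0%) and below for 1436 (13.7%), so that 31.7% did not overlap.

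Bhmt, betaine-homocysteine methyltransferase, which remethylates homocysteine, is named in the title of the series. It stood at 1376, 1216, 719 and 382 CPM in perivenous nuclei, so that each library labelled Brca1-KO was below each Brca1-WT library. The log2 fold change was -1.27 ± 0.37 SE (unadjusted p = 0.0133, edgeR adjusted p = 0.995), and over the alternatives the lowest adjusted p was 0.0119. It passed without replicate 1 of the libraries labelled Brca1-KO (-1.80, adjusted p = 0.0184) and without the filter on low counts (-1.24, adjusted p = 0.0119). Bhmt was read in 64.1%, 55.0%, 42.3% and 26.3% of perivenous nuclei thinned to 1000 UMIs, and in 24.8%, 23.1%, 12.9% and 8.24% of endothelial nuclei, which moved with it.

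In the other hepatocyte nuclei Bhmt stood at 1976, 1206, 724 and 276 CPM, a log2 fold change of -1.70. The ratio of perivenous to other nuclei was 0.695 in Brca1-WT replicate 1, 0.994 in Brca1-WT replicate 2, and, of the libraries labelled Brca1-KO, 1.003 in replicate 1 and 1.39 in replicate 2. The genotype difference in perivenous nuclei minus that in the others was 0.50 ± 0.23 SE on the log2 scale (unadjusted p = 0.0686, edgeR adjusted p = 0.9998). It passed without replicate 1 of the libraries labelled Brca1-KO (0.73, adjusted p = 8.6e-05) and without the filter on low counts (0.51, adjusted p = 0.0494), and over the other alternatives its lowest adjusted p was 0.922.

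**Figure D4:**
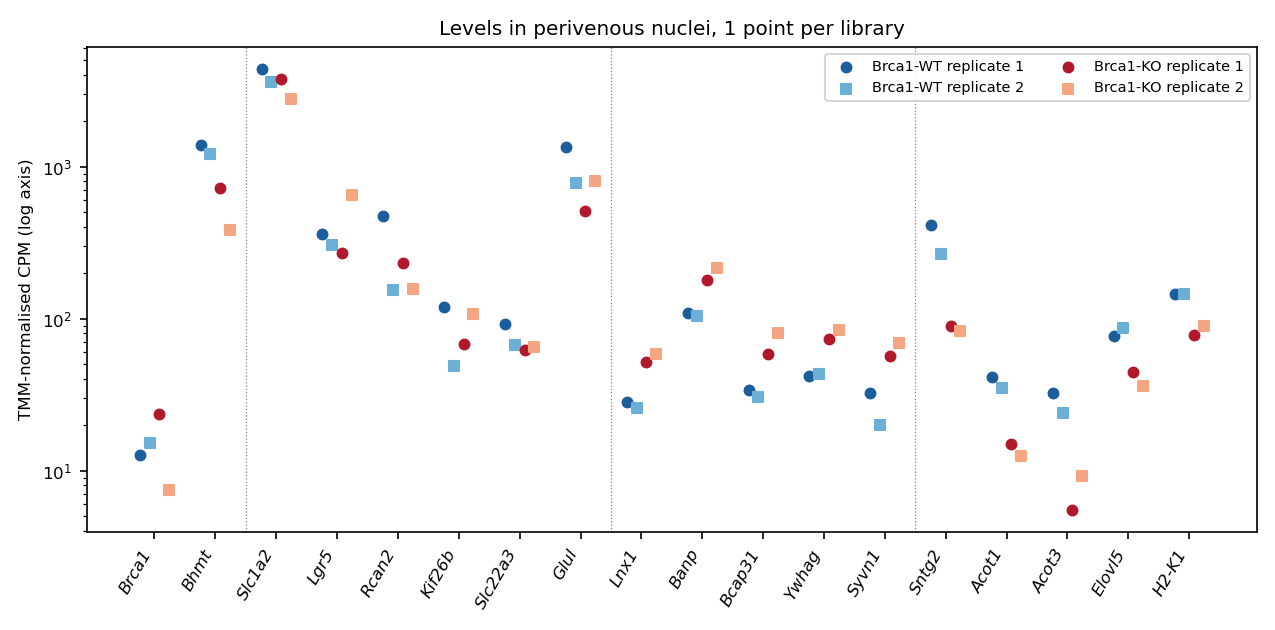
TMM-normalised CPM (log axis) in perivenous nuclei, 1 point per library, for Brca1 and Bhmt, the 6 score genes, and the 5 genes of smallest unadjusted p in each direction whose groups do not overlap. The 2 libraries labelled Brca1-KO lie apart from the Brca1-WT libraries for Bhmt and, by the choice of genes, for the 10 on the right, and overlap them for Brca1, Slc1a2, Lgr5, Rcan2, Kif26b and Glul.

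The 6 score genes did not pass. Glul stood at 1338, 776, 508 and 800 CPM and Slc1a2 at 4379, 3611, 3765 and 2782, and the groups overlapped for both. Lgr5 read 360, 307, 271 and 654, so its log2 fold change of 0.43 became -0.32 without replicate 2 of the libraries labelled Brca1-KO. Slc22a3 was the one score gene without overlap, at 92.4, 67.5, 61.9 and 65.1. With perivenous nuclei ranked by the other 5 genes, the log2 fold changes were -0.39 for Slc1a2, 0.37 for Lgr5, -0.71 for Rcan2, 0.02 for Kif26b, -0.36 for Slc22a3 and -0.66 for Glul, at adjusted p-values (edgeR) of 0.993 to 0.999.

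The 10 genes of smallest unadjusted p whose groups did not overlap, named by rule since none passed, had edgeR adjusted p = 0.995. Sntg2, a syntrophin of the dystrophin complex, was the furthest below, at 412, 266, 89.0 and 82.4 CPM (log2 fold change -2.02 ± 0.28 SE), and it was the 1 named gene that DESeq2 called (adjusted p = 0.000116). Acot1 and Acot3, acyl-CoA thioesterases that PPARA drives, stood at 41.1, 34.8, 15.01 and 12.5 and at 32.4, 24.1, 5.49 and 9.27. Elovl5, a fatty acid elongase, read 76.4, 86.8, 44.3 and 35.8, and H2-K1, a class I histocompatibility gene, 146, 144, 77.6 and 89.2. Counts of the Acot genes and of H2-K1 are uncertain because of close relatives.

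On the higher side, 2 genes belong to the endoplasmic reticulum. Syvn1, the ubiquitin ligase of protein degradation at that membrane, stood at 32.4, 19.99, 56.4 and 69.4 CPM (log2 fold change 1.22 ± 0.30 SE), and Bcap31, a membrane chaperone, at 33.8, 30.7, 58.6 and 80.4. Lnx1, a ubiquitin ligase for Numb, stood at 28.4, 25.8, 52.0 and 58.6, and it was itself 2.04, 2.56, 2.14 and 2.18 times lower in perivenous than in other nuclei. Banp, a nuclear matrix protein, stood at 108, 103, 180 and 216, and Ywhag, a 14-3-3 protein, at 42.2, 43.1, 73.6 and 84.2. The other hepatocyte nuclei gave log2 fold changes of 0.51 to 1.09 for these 5 genes, and of -2.19 to -0.49 for the 5 on the lower side.

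Genes of the unfolded protein response, which raises chaperone output when the endoplasmic reticulum is loaded, were mostly higher in the libraries labelled Brca1-KO without any passing the test. Of 31 tested, 28 were higher and 3 lower (0 passed in edgeR), with a median log2 fold change of 0.69 against -0.01 over all genes. In this list 16 did not overlap upward and 0 downward, where 18.0% of all genes lay above and 13.7% below without overlap. Pdia6 and Pdia3, disulfide isomerases, stood at 26.6, 14.1, 38.5 and 90.7 CPM and at 118, 75.5, 143 and 411. Hspa5, the main chaperone of that compartment, stood at 91.7, 43.8, 79.8 and 286, and Ddit3, a transcription factor of prolonged stress, at 13.1, 12.4, 21.2 and 30.1.

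Most of that height came from 1 library. The library labelled Brca1-KO replicate 2 was the highest for each of these 4 genes, and for Hspa5 replicate 1 lay below Brca1-WT replicate 1. Without replicate 2 the median was 0.17 and 24 of 31 were higher, and without replicate 1 the median was 1.03. Without the filter on low counts, 7 of 36 genes passed in edgeR, all higher, where 70 of all 19757 did. The median was 0.42 without Brca1-WT replicate 2.

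Genes of fatty acid oxidation and targets of PPARA, the receptor that turns on that pathway, ran the other way. Of 48 tested, 7 were higher and 41 lower in the libraries labelled Brca1-KO (0 passed in edgeR), and the median log2 fold change was -0.34. Of these genes, 21 did not overlap downward against 0 upward, where 13.7% of all genes lay below and 18.0% above without overlap. Besides Acot1 and Acot3, Angptl4, a secreted lipase inhibitor, stood at 127, 105, 67.0 and 60.9 CPM and Acsl5, an acyl-CoA synthetase, at 83.0, 66.9, 43.2 and 38.8. The median stayed between -0.54 and -0.26 when each library was left out in turn. In the other hepatocyte nuclei the list's median was -0.39.

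The 12 mitochondrially encoded genes tested were all lower (median log2 fold change -0.78, 0 passed in edgeR). Of these, 11 did not overlap, where 13.7% of all genes lay below without overlap. Mt-Co2, a subunit of cytochrome oxidase, stood at 194, 172, 105 and 98.7 CPM. These transcripts do not come from the nucleus, and the median mitochondrial share of UMIs was 0.0897%, 0.0955%, 0.0596% and 0.0451% in perivenous nuclei and 0.0943%, 0.107%, 0.0653% and 0.0568% in the others. That share is a measure of RNA carried over from cytoplasm, and its part in the other differences was not tested.

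In the one-carbon and methionine cycle, which holds Bhmt, 19 of 48 genes were higher and 29 lower (0 passed in edgeR), with a median log2 fold change of -0.07. Bhmt2, a relative of Bhmt, stood at 279, 224, 176 and 125 CPM, and Dmgdh, which breaks down the dimethylglycine that Bhmt makes, at 462, 401, 316 and 276. Mat2a, which makes S-adenosylmethionine, stood at 69.5, 74.4, 85.3 and 109. The median was 0.02 without replicate 2 of the libraries labelled Brca1-KO and -0.31 without replicate 1.

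The markers of the zone itself did not move one way. Of 39 other perivenous markers, 21 were higher and 18 lower (0 passed in edgeR), with a median log2 fold change of 0.12 that became -0.36 without replicate 2 of the libraries labelled Brca1-KO and -0.12 without Brca1-WT replicate 2. Without overlap, 5 of the 39 lay above and 9 below, where 18.0% and 13.7% of all genes did. The examples given here were all lower and do not stand for the list. Gulo stood at 233, 192, 137 and 138 CPM, and Cyp2c37 at 705, 682, 478 and 233. Rarres1, a retinoid-responsive gene, stood at 239, 179, 126 and 55.9. Of 30 periportal markers, 9 were higher and 21 lower, with a median of -0.32 that became 0.15 without Brca1-WT replicate 2 and -0.67 without replicate 1 of the libraries labelled Brca1-KO.

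Of the Wnt list 23 of 38 genes were higher and 15 lower (0 passed in edgeR), with a median log2 fold change of 0.15 that became 0.04 without replicate 2 of the libraries labelled Brca1-KO. In this list 12 genes did not overlap upward and 2 downward, against 18.0% and 13.7% of all genes. Hnf4a, a transcription factor of hepatocyte identity, stood at 412, 399.7, 562 and 558 CPM, and Dvl3, a Dishevelled protein, at 28.0, 22.4, 30.0 and 36.6. Fzd6, a frizzled receptor, was 1 of the 2 that lay below, at 24.7, 10.7, 5.86 and 9.02.

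Genes of glutamine and ammonia handling had no direction that held. Of 30 tested, 11 were higher and 19 lower. In each direction 2 did not overlap, where 18.0% of all genes lay above and 13.7% below without overlap. Their log2 fold changes had a median of -0.11 over the 30 genes. The median was 0.12 without replicate 2 and -0.58 without replicate 1 of the libraries labelled Brca1-KO, and 0.05 without Brca1-WT replicate 2 and -0.25 without Brca1-WT replicate 1.

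Xenobiotic metabolism had 24 of 57 higher and 33 lower, DNA repair and p53 targets 20 of 43 higher and 23 lower, and bile acid genes 9 of 35 higher and 26 lower. The larger side turned for xenobiotic metabolism, to 32 of 59 higher, without Brca1-WT replicate 2 and without replicate 1 of the libraries labelled Brca1-KO. For DNA repair it turned to 25 of 45 higher without Brca1-WT replicate 2 and to 23 of 44 without replicate 2 of the libraries labelled Brca1-KO, with 22 of 44 without Brca1-WT replicate 1. Brca2, which acts with Brca1 in repair by recombination, stood at 24.0, 24.8, 14.6 and 17.0. Of these 3 lists and the 2 before them, 0 genes passed in edgeR. At an unadjusted p below 0.05 the larger of the 2 directions held 0 to 4 genes. The most were 4 of 57 lower for xenobiotic metabolism, where 216 of all 10492 genes were lower and 139 higher at that p.

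Tle3, a co-repressor of TCF factors, stood high in 1 library alone, at 4.37, 5.51, 5.86 and 25.6 CPM. Here the library labelled Brca1-KO replicate 1 lay near the Brca1-WT libraries. Nr1d1, a repressor of the circadian clock, stood at 14.9, 15.9, 25.6 and 41.1, and no source used here gives the hour of tissue collection.

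**Figure D5:**
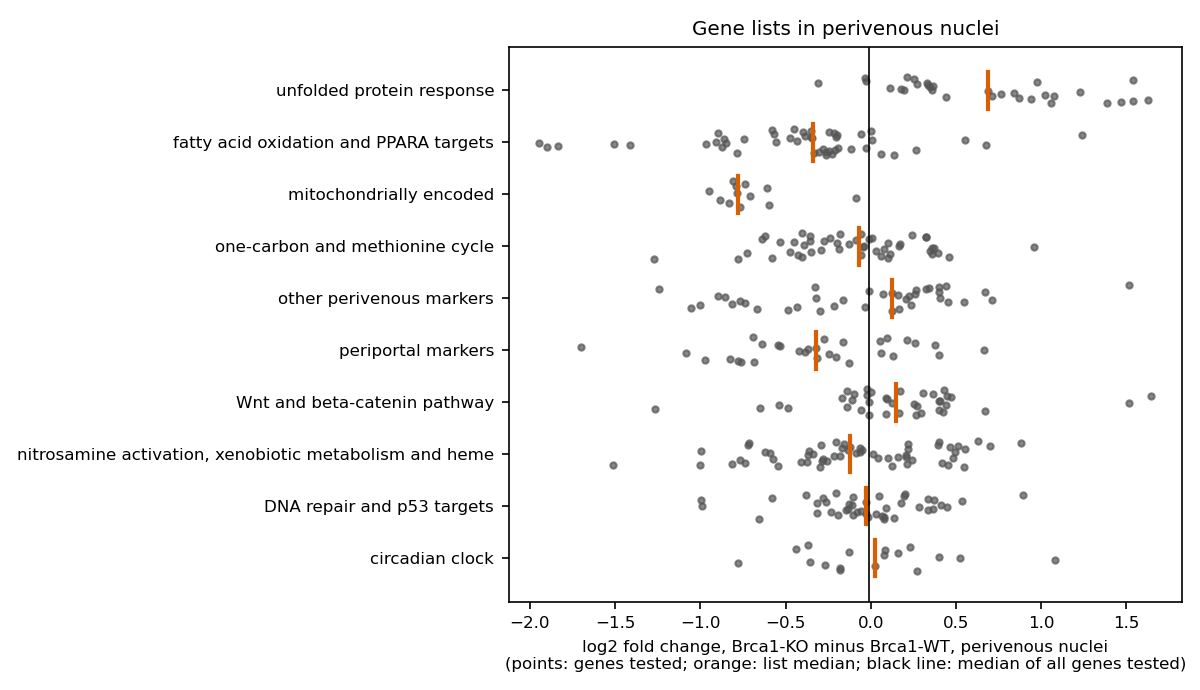
Log2 fold change in perivenous nuclei, libraries labelled Brca1-KO against Brca1-WT, with 1 point per tested gene (at most 1 gene of a list is not drawn) and the median over all tested genes of each of 10 gene lists in orange. The unfolded protein response has the highest median, 0.69, and the list of fatty acid oxidation and PPARA targets has 41 of 48 points below 0.

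Whether the genotype difference depended on the zone was tested in 14610 genes with an interaction term, and 0 (0.0%) passed in edgeR, with a smallest adjusted p of 0.429. At an unadjusted p below 0.05 there were 555 (3.8%), and DESeq2 called 0. Simulated interactions were recovered in 2% of 2-fold, 55% of 4-fold and 93.5% of 8-fold cases, with the same fixed spread for every gene and not the spread of these libraries. Without replicate 1 of the libraries labelled Brca1-KO the count was 166, and without replicate 2 it was 15.

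Txnip, a thioredoxin inhibitor that responds to glucose, had the smallest p. It stood at 36.4, 13.1, 8.06 and 17.0 CPM in perivenous nuclei and at 83.2, 22.9, 7.96 and 15.3 in the others, so the ratio of the zones was below 1 in both Brca1-WT libraries and near 1 in both libraries labelled Brca1-KO (interaction 1.20 ± 0.23 SE on the log2 scale). Mast4, a microtubule-associated kinase, had zone ratios of 0.559, 0.531, 0.762 and 0.843. In the opposite direction, Slc10a2, a bile acid uptake transporter, had ratios of 2.06, 1.51, 1.13 and 0.863, and App, the amyloid precursor gene, 0.654, 0.576, 0.326 and 0.325.

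In the other hepatocyte nuclei 0 of 14923 genes (0.0%) passed the genotype test in edgeR and 467 (3.13%) had an unadjusted p below 0.05.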

How the data were processed

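Gene-by-barcode UMI counts were deposited by the authors as Cell Ranger 6.0.0 output, per the file headers, and are not normalized. The submitters' processing notes name a human build while the gene identifiers are mouse, and no source used here gives the mouse build. Members and gene lists were chosen with earlier results of these data known.

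UMIs were summed per library over perivenous and over other hepatocyte nuclei. Genotypes were compared with edgeR 4.0.16 (R 4.3.3; TMM, filterByExpr, robust quasi-likelihood test, Benjamini-Hochberg adjustment at 0.05) and with DESeq2 1.42.0 as an alternative. The interaction used library, zone and zone by genotype as terms. Both fits were tested on simulated data with 200 changed genes per fold, drawn from genes of higher counts, and with the same fixed dispersion for every gene. The zones were compared by ratio, with no test, for genes with at least 100 UMIs in either set, and a count of 0 was set to 3. Exact binomial intervals cover counting error only. Doublets were called with Scrublet (scanpy 1.11.5, expected rate 0.06) and kept, and their removal was an alternative.

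Named genes were Brca1, Bhmt and the score genes, up to 15 genes of highest and 10 of lowest median zone ratio, and, as none passed, the 5 genes each way of smallest unadjusted genotype p (3 for the interaction) with an average log2 CPM of at least 4 and no overlap, plus up to 4 per list. Mitochondrially encoded genes, genes of the nucleus filter and gene models known only by a number were left out. A few genes that the rule takes are not reported here. Further list members were named as examples after their values were seen. The alternatives were other scaling, filters, shares of nuclei, scores and borders, the replicate number as a block, and each library left out. The depth was 36662067 to 45638888 UMIs per library.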

Additional observations from a re-analysis of the deposited data

Results flagged for a closer look

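For 3 flagged genes, all named above by rule, the ratio of perivenous to other hepatocyte nuclei lay on opposite sides of 1 in the Brca1-WT libraries and the libraries labelled Brca1-KO. The share of all genes with this pattern is not given. Txnip was named partly because its zone ratios did not overlap between the groups, so its pattern follows in part from that choice. The mean log2 ratio was higher in the libraries labelled Brca1-KO by 0.51 for Bhmt, by 1.11 for Txnip and by 0.38 for Ywhag. None of the 3 passed the interaction test (edgeR adjusted p = 0.9998 for Bhmt, 0.429 for Txnip and 0.9998 for Ywhag). For Bhmt the ratio was 0.994 in Brca1-WT replicate 2 against 1.003 in replicate 1 of those labelled Brca1-KO, so the sides differed by little in these 2 libraries.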

How the results depend on the processing

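The count of genes called between genotypes was 0 and became 3 with DESeq2 and 70 without the filter on low counts, and it ran from 0 to 163 when each library was left out. The interaction count of 0 became 15 without the filter and 4 with the top 5% of nuclei, and ran from 0 to 166 when each library was left out. The cause was not tested. Replicate numbers are shared between the groups, and the labels do not say whether they pair the samples. The correlation of same-numbered deviations was -0.19 over 4812 genes. With 2 libraries per group the crossed correlation must then be 0.19, so the sign cannot tell whether samples were paired. With the replicate block both counts stayed 0, with 282 and 502 genes at an unadjusted p below 0.05, and the log2 fold change of Brca1 was -0.074. The block changed no other call. Of the 268 genes at least 2-fold apart between the zones, a 1.5-fold line gave 539 and a 4-fold line 75. The border of the score differed by -14.5 and ran from -30.4 to 1.38 when each library was left out, reversing to 1.38 without Brca1-WT replicate 1, and the share above the common score differed by -3.61 percentage points and ran from -6.94 to -0.28. When each library was left out, log2 fold changes that reversed ran from -0.93 to 0.73 for Brca1 (also -0.02), -0.32 to 0.93 for Lgr5, -1.31 to 0.30 for Rcan2, -0.49 to 0.82 for Kif26b (also -0.32, and -0.0044 without called doublets), -0.43 to 0.92 for Igf2r and -0.073 to 1.57 for Gclc. Low counts limit genes of few UMIs.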

Other observations

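Values below were singled out after they were seen. Themis, a gene known from T cells, was found in 12.2% (95% exact interval 8.51 to 16.8), 2.85%, 2.03% and 39.5% (34.5 to 44.7) of perivenous nuclei and in 3.61%, 0.793%, 0.952% and 5.17% of the other hepatocyte nuclei, in the order Brca1-WT replicates 1 and 2 and the libraries labelled Brca1-KO replicates 1 and 2. Of the 32, 10, 5 and 147 perivenous nuclei with Themis, 2, 2, 0 and 8 had a UMI of any of the other 18 lymphocyte markers. Cyp2c69 was found in 80.5%, 5.13%, 15.4% and 0.806% of perivenous nuclei and in 16.5%, 0.0952%, 0.726% and 0.299% of the others. Cd36 was found in 19.5%, 18.8%, 20.7% and 59.4% of perivenous nuclei and in 3.02%, 2.67%, 5.31% and 7.63% of the others. No test was made of these shares.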
